A study of Homo sapiens with 8 samples.

Results

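The genes described here are 47 DNA replication genes and E2F targets, named one by one as a list: the licensing factors and helicase of replication origins, the sliding clamp with its loader, the replicative polymerases, the enzymes that supply deoxynucleotides, and the E2F factors, cyclins E and CDC25A that drive cells from G1 into S phase. All 47 had exactly 1 probe set with 1 gene symbol on the array, and all 47 passed the filter on low signal, among 16796 genes that did so. The samples were 4 human prostate cancer cell lines, C4-2B (a bone-tropic derivative of LNCaP), DU145 (from a brain metastasis), PC3 (from a bone metastasis) and VCaP (from a vertebral metastasis, with a TMPRSS2-ERG fusion). Each line was transfected with non-targeting siRNA (the control) or with siRNA against DNAPK (written si7DNAPK in the sample titles) and collected after 48 hours, and gave 1 array for each, 8 arrays in all. C4-2B and PC3 were grown in RPMI1640 and DU145 and VCaP in DMEM. The study's title names Wnt signalling, and its design asks which pathways go with DNAPK.

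A cell copies its DNA once per cycle. In G1 the origin recognition complex, CDC6 and CDT1 load the MCM2 to MCM7 ring onto origins, and at the start of S phase CDC45 and the GINS complex turn that ring into the active helicase. E2F transcription factors, held back by the RB family until cyclin-dependent kinases release them, switch on most of these genes together, so that their transcripts are abundant in late G1 and S phase and low in resting cells. In bulk RNA, a change in the share of cells in S phase and a change in transcript per cell cannot be told apart.

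Many of these genes share the letters that E2F factors bind close to their start sites. RefSeq promoter windows (build GRCh38.p14, 250 bases before to 50 after each start) were at hand for 41 of the 47 genes. The motifs searched, on both strands, were TTTCCCGC, TTTCGCGC, TTTGGCGC and TTTGCCGC, where a match of one motif may share letters with a match of another on the opposite strand. At least 1 of the 4 was found in 24 of 41 genes (58.5%), against 1090 of 27305 genes with a window (3.99%) and 5.84% of the genes past the signal filter that have one. By single motif, TTTCCCGC was found in 12 of the 41 genes, TTTGGCGC in 11, TTTCGCGC in 6 and TTTGCCGC in 1. For comparison, 1 of 22 mitosis genes (4.55%) held an E2F motif, while 17 of those 22 (77.3%) held TTTGAA or TTCGAA, the letters of the CHR element known from promoters of late cell cycle genes. In the replication genes these CHR letters were found in 3 of 41 (7.32%), against 19.5% of all genes with a window and 15.5% of those past the signal filter. A match is a description of letters, not of binding.

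The windows of 4 members follow as examples, those with an E2F motif and the highest difference between the siRNAs in DU145, 5′ to 3′ on the gene's strand, with the motif in capitals. They lie at chr16:85688905-85689204 (minus strand) for GINS2, a helicase subunit, chr1:35769929-35770228 (minus strand) for CLSPN, the fork protein claspin, chr20:33686336-33686635 (minus strand) for E2F1 and chr18:657403-657702 (plus strand) for TYMS, thymidylate synthase.
GINS2: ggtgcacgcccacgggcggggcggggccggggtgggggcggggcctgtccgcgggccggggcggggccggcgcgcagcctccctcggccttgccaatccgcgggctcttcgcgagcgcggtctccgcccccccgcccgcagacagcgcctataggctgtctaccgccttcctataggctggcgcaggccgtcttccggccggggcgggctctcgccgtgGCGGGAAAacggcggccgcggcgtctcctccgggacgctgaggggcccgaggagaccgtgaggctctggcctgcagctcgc
CLSPN: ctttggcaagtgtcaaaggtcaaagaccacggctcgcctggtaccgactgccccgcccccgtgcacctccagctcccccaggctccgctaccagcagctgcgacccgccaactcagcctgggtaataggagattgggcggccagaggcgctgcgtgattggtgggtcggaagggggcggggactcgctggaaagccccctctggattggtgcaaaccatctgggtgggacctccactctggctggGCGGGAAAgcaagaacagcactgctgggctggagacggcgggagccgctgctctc
E2F1: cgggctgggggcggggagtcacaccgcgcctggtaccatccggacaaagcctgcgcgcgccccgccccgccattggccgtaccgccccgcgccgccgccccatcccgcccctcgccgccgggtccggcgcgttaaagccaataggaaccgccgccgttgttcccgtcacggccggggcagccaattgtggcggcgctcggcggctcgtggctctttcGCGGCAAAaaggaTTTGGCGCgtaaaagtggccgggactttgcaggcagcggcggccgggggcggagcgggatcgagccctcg
TYMS: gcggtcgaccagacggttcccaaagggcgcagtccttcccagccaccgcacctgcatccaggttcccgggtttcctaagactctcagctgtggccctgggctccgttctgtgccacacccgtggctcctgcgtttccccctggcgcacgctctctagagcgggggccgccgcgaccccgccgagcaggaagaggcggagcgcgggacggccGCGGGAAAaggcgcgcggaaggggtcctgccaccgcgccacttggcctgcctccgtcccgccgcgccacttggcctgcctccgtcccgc
The capitals in GINS2, CLSPN and TYMS read GCGGGAAA, which is TTTCCCGC on the opposite strand, and begin 31, 5 and 39 bases before the start. E2F1 holds 2 matches, GCGGCAAA (TTTGCCGC on the opposite strand) from 33 bases before the start and TTTGGCGC from 20 before it. E2F1 is known to act on its own promoter. Members with and without the letters had close medians in DU145 and PC3. In DU145 the median difference was 0.46 for the 24 members with a motif and 0.45 for the 17 without, and in PC3 it was -0.22 and -0.19. In C4-2B it was 0.13 with a motif and 0.16 without, and in VCaP it was 0.11 and 0.05.

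All values are log2 RMA signals, so a difference of 1 is a 2-fold change, and every difference is DNAPK siRNA minus non-targeting siRNA. RMA makes the distributions of the arrays alike, so a difference is relative to the bulk of transcripts. PRKDC, which encodes the catalytic subunit of DNA-PK, checks the labels and was lower with DNAPK siRNA in all 4 lines, and the share of the control signal left was 65.0% in VCaP, 47.2% in DU145, 25.1% in PC3 and 17.4% in C4-2B. Array medians over all probe sets ran from 2.94 to 2.99. Among identity markers on the control arrays, KLK3 (PSA) read 10.12 in C4-2B but 4.46 in VCaP, a line known to make PSA, close to 3.84 in DU145 and 3.68 in PC3. ERG read 8.57 in VCaP, where the fusion is known to drive it, and at most 3.52 elsewhere. TMPRSS2 was low in DU145 (2.18), intermediate in PC3 (6.72) and higher in VCaP (9.03) and C4-2B (9.56). VIM was highest in DU145 (8.19), followed by PC3 (7.82), C4-2B (4.29) and VCaP (2.22). Of markers of other cells, PTPRC, CD3E, COL1A2 and DCN lay below the signal filter, and CD68 and COL1A1 lay above it. There was no second culture of any condition, so within a line no test is possible. The p-values of the response measure the spread between lines. Those of the level of a line measure how alike its arrays are, although these had different siRNAs.

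The replication genes took opposite directions in different lines after DNAPK siRNA. In DU145 they were higher almost without exception, in PC3 most were lower, and in C4-2B and VCaP the values were smaller or mixed. The difference lay above 0 in 46 of 47 members in DU145, 37 in C4-2B, 29 in VCaP and 11 in PC3, where the same held for 56.9%, 57.1%, 49.7% and 55.5% of all genes past the filter. The member median was 0.46 in DU145, 0.15 in C4-2B, 0.11 in VCaP and -0.21 in PC3, against medians over all genes of 0.05, 0.04, -0.00316 and 0.04. In 35 of 47 members (74.5%) the difference was above 0 in DU145 and below 0 in PC3, a pattern seen in 24.4% of all genes. DU145 had the highest of the 4 differences in 40 members (85.1%, against 26.3% of all genes) and PC3 the lowest in 31 (66%, against 22.9%).

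**Figure D1:**
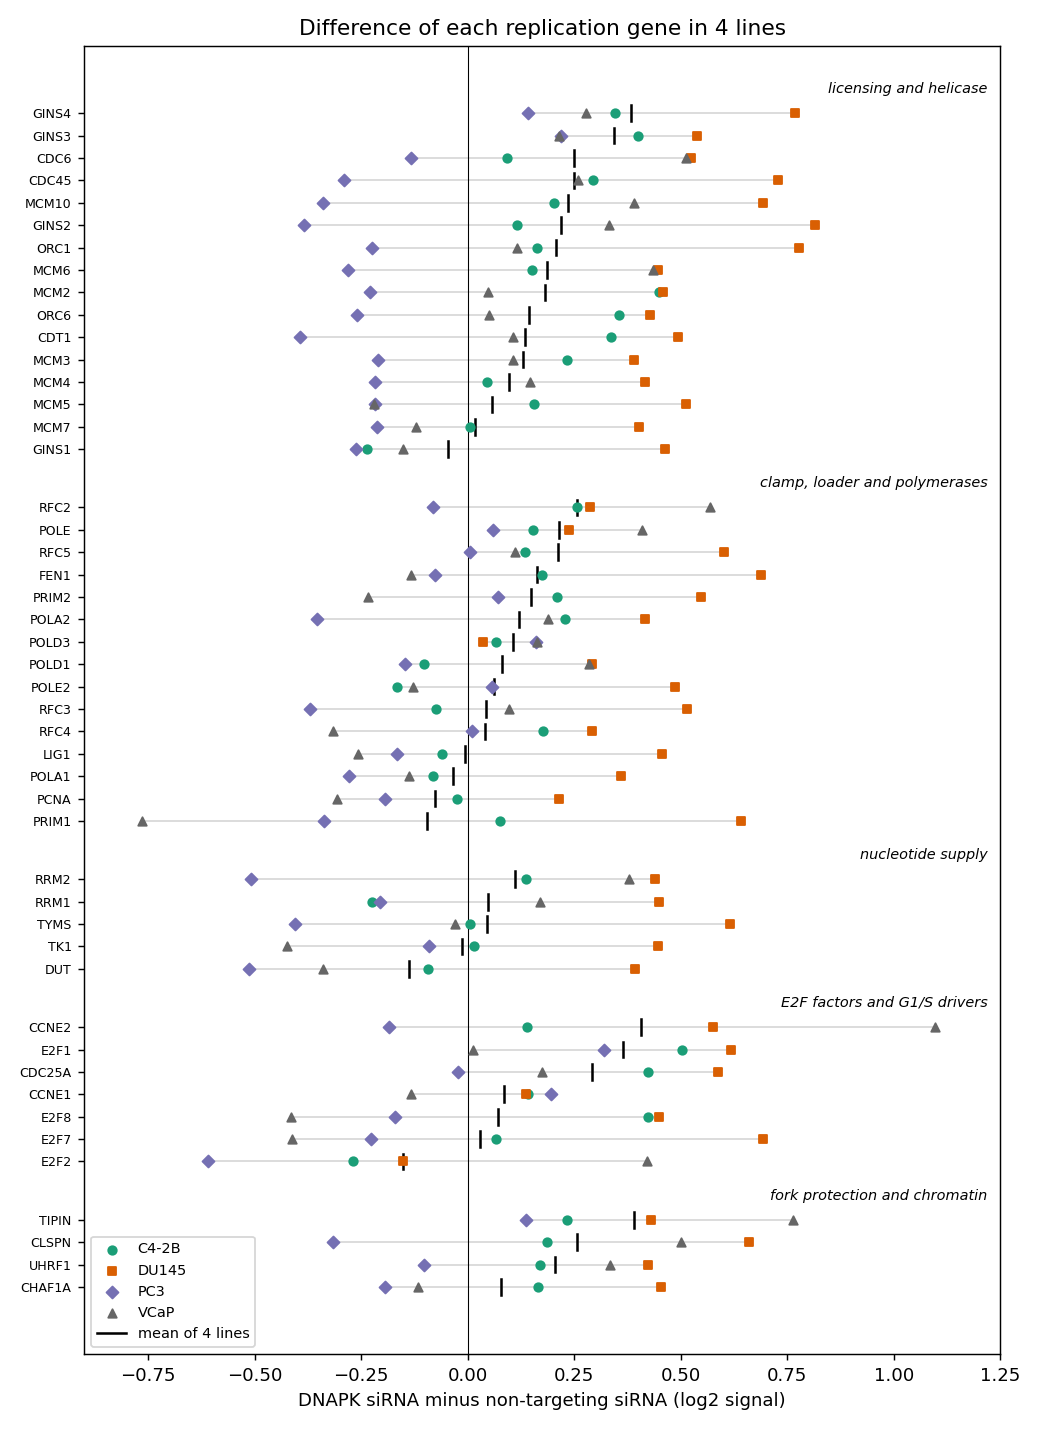
Difference between DNAPK siRNA and non-targeting siRNA (log2 signal, horizontal axis) for each of the 47 genes, grouped by role, with 1 symbol per line and a black tick at the mean of the 4 lines. DU145 squares lie to the right of 0 in 46 genes and PC3 diamonds to the left in 36.

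The size of these differences was modest. Past 0.5 on the log2 scale lay 19 of 47 members in DU145 (5.89% of all genes there), 5 in VCaP (10.5%), 1 in C4-2B (4.51%) and 0 in PC3 (6.08%). Below -0.5 lay 3 members in PC3 (5.22% of all genes), 1 in VCaP (12.8%), 0 in DU145 (5.55%) and 0 in C4-2B (3.76%). In DU145 the middle 50% of members lay between 0.41 and 0.59, a narrow band beside that of all genes, -0.15 to 0.22. The spread over members was widest in VCaP, where their SD was 0.346, against 0.204 in PC3, 0.188 in DU145 and 0.183 in C4-2B. VCaP also had the widest spread over all genes, an SD of 0.462 against 0.288 to 0.334 in the other lines.

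The order of the members in one line was only weakly related to that in another. Across the 47 members, which are no independent replicates and share their arrays, the Pearson correlation of the differences was 0.35 between C4-2B and DU145 and 0.38 between C4-2B and PC3. It was -0.02 between DU145 and PC3, -0.01 between DU145 and VCaP, 0.02 between PC3 and VCaP and 0.15 between C4-2B and VCaP. Over all genes past the filter, C4-2B correlated at 0.10 with DU145, 0.14 with PC3 and 0.06 with VCaP. The other pairs of lines lay between 0.00986 and 0.0548. For each member the difference in DU145 minus that in PC3 had a median of 0.64, from -0.12 in POLD3, a subunit of polymerase delta, to 1.20 in GINS2.

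Averaged over the 4 lines, no member passed the test. The limma fit with the line as a block called 0 of 47 members and 0% of the 16796 genes (threshold 0.05 after Benjamini-Hochberg adjustment), and no gene had an adjusted p under 0.688. PRKDC, the target of the siRNA, had the lowest mean difference of all genes, -1.56, and was not called either (limma adjusted p = 0.688). In simulated data, 200 of 16796 genes were given a difference of 0.5, 1 or 2 in every line. This fit called 21% of those given 0.5. The larger planted differences ease the adjusted threshold for the smaller ones. No gene was called in the data themselves, so 21% may be too high for them. At an unadjusted level of 0.05 there were 4 members, GINS3, TIPIN, GINS4 and E2F1, all with a positive difference (8.51% of members, against 7.19% of all genes). The mean difference had a median of 0.12 over members, with 39 of 47 above 0, against 0.03 and 56.4% over all genes. Single lines weighed heavily on these values. Without the PC3 pair the median over members was 0.24 and 10 members reached the unadjusted level, without the DU145 pair the median was 0.02 and 0 members did, and without the C4-2B pair 1 did. The share of all genes at that level was not computed for these fits, so their counts have no background. In 7 members (14.9%) the difference was above 0 in every line, against 11.5% of all genes, and in 0 members it was below 0 in every line, against 5.89%.

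The 16 licensing and helicase genes had medians of 0.50 in DU145, 0.18 in C4-2B, 0.13 in VCaP and -0.23 in PC3, with 16, 15, 13 and 2 members above 0. GINS2, a subunit of the GINS complex, had the highest difference of all members in DU145. Its signal in the control and with DNAPK siRNA was 6.04 and 6.86 in DU145, 6.96 and 7.07 in C4-2B, 4.79 and 5.12 in VCaP and 6.06 and 5.68 in PC3. The differences were 0.81, 0.11, 0.33 and -0.38, and the mean was 0.22 ± 0.50 (SD, n = 4 lines, limma adjusted p = 0.779). On the control arrays DU145 and PC3 had nearly the same signal, and on the DNAPK siRNA arrays DU145 stood well above PC3.

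ORC1, the largest subunit of the origin recognition complex and one that appears in G1, came next in DU145, where it read 5.49 and 6.27. It read 6.37 and 6.53 in C4-2B, 5.77 and 5.89 in VCaP and 5.89 and 5.66 in PC3, so that DU145 was the lowest line among controls and the second highest with DNAPK siRNA. MCM2, a subunit of the helicase ring, read 6.36 and 6.82 in DU145 (0.46), 6.96 and 7.41 in C4-2B (0.45), 6.66 and 6.71 in VCaP and 6.17 and 5.94 in PC3 (control and DNAPK siRNA), so that C4-2B and DU145 were about equally far above their controls. The other ring subunits MCM3 to MCM7 had differences between 0.39 and 0.51 in DU145 and between -0.28 and -0.21 in PC3.

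The GINS subunits, which act as 1 complex, were all above their control in DU145, and their values in the other lines varied. GINS1 read 6.25 and 6.71 in DU145, 7.67 and 7.52 in VCaP, 8.07 and 7.83 in C4-2B and 7.10 and 6.83 in PC3 (control and DNAPK siRNA), so that only DU145 was above its control. GINS3 was above its control in every line, at 6.52 and 7.06 in DU145, 6.93 and 7.33 in C4-2B, 6.43 and 6.65 in VCaP and 6.40 and 6.62 in PC3, with a mean difference of 0.34 ± 0.16 (limma 95% interval 0.07 to 0.61, adjusted p = 0.688). GINS4 was also above its control in every line, at 4.74 and 5.51 in DU145, 5.32 and 5.67 in C4-2B, 3.48 and 3.75 in VCaP and 4.51 and 4.65 in PC3, with a mean of 0.38 ± 0.27 (0.07 to 0.70). The mean of GINS1 was -0.05 ± 0.34.

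The clamp, its loader, the polymerases and the lagging-strand enzymes (15 genes) had medians of 0.42 in DU145, 0.08 in C4-2B, -0.13 in VCaP and -0.08 in PC3. In that order, 15, 9, 7 and 6 of them lay above 0 (100%, 60%, 46.7% and 40%). The shares of all genes were 56.9%, 57.1%, 49.7% and 55.5%. PRIM1, the catalytic subunit of primase, had the lowest difference of all members in VCaP. It went from 9.11 to 8.35 there (-0.77) and from 7.49 to 7.15 in PC3 (-0.34), but read 8.13 and 8.77 in DU145 (0.64) and 8.64 and 8.72 in C4-2B (0.08). Its mean was -0.10 ± 0.60, the widest spread over lines of any member, and without the VCaP pair it was 0.13. PCNA, the clamp, ranged from -0.31 in VCaP to 0.21 in DU145. POLD3 had the lowest difference in DU145 of the members above 0 there, from 6.19 to 6.23. It was above its control in every line, at 6.16 and 6.32 in VCaP, 6.43 and 6.59 in PC3 and 6.44 and 6.51 in C4-2B. In VCaP the polymerase epsilon subunit gene POLE (0.41) and the loader subunit gene RFC2 (0.57) lay on the opposite side from PRIM1.

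Of the 5 nucleotide supply genes, 5 were above their control in DU145 (median 0.45) and 5 below it in PC3 (median -0.41). RRM2, the regulated subunit of ribonucleotide reductase, had 0.44 in DU145 and -0.51 in PC3, and TYMS had 0.61 and -0.41. DUT, which removes dUTP so that uracil is not built into DNA, had a low signal. It read 4.31 and 4.70 in DU145, 4.42 and 4.33 in C4-2B, 4.50 and 4.16 in VCaP and 3.65 and 3.13 in PC3, with a mean difference of -0.14 ± 0.39, so that DU145 alone was above its control. TK1, thymidine kinase of the salvage route, read 8.03 and 8.47 in DU145, 8.60 and 8.61 in C4-2B, 8.28 and 8.19 in PC3 and 7.85 and 7.43 in VCaP, so that DU145 was above its control, VCaP below it and the other lines close to it.

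**Figure D2:**
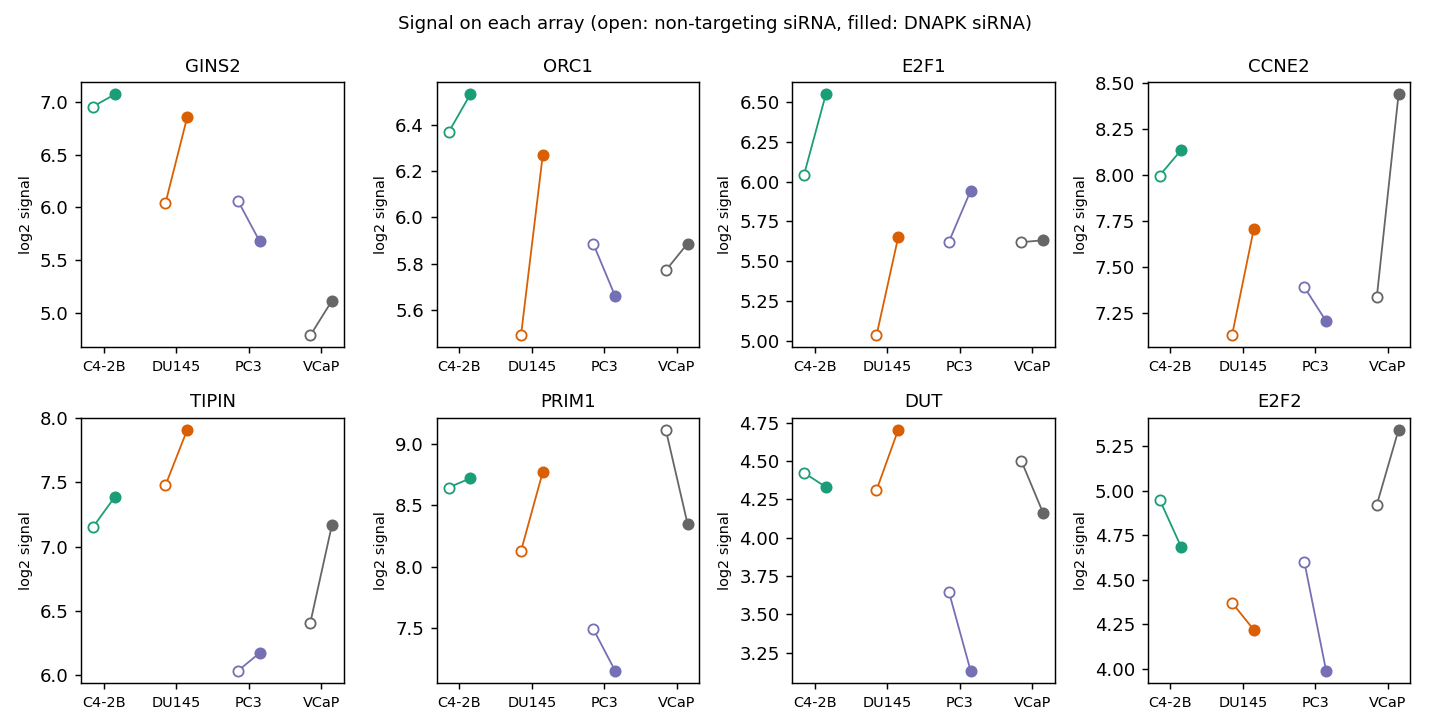
Log2 signal (vertical axis, a different range for each gene) on each of the 8 arrays for 8 members, with open symbols for non-targeting siRNA and filled symbols for DNAPK siRNA, joined within a line. GINS2 and ORC1 lie above their control in DU145 and below it in PC3, CCNE2 and TIPIN lie farthest above it in VCaP, and E2F2 lies above it in VCaP alone.

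The E2F factors themselves did not move as one. E2F1, an activator that drives entry into S phase, was above its control in every line, at 5.03 and 5.65 in DU145, 6.05 and 6.55 in C4-2B, 5.62 and 5.94 in PC3 and, nearly equal, 5.62 and 5.63 in VCaP. Its mean difference was 0.36 ± 0.26 (limma 95% interval 0.05 to 0.68, adjusted p = 0.688), and it had the highest difference of all members in both C4-2B (0.50) and PC3 (0.32). So in PC3, where most targets were lower, E2F1 was not. E2F2, another activator, read below its control in 3 lines, at 4.598 and 3.99 in PC3, 4.95 and 4.68 in C4-2B and 4.37 and 4.22 in DU145, and above it in VCaP, at 4.92 and 5.34. It was the 1 member below its control in DU145, and its mean was -0.15 ± 0.43, which became 0.000252 without the PC3 pair. The repressors E2F7 and E2F8, which are themselves E2F targets and curb the response late in S phase, had 0.69 and 0.45 in DU145 and -0.41 in VCaP for both.

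Of the cyclins E, which activate CDK2 at the start of S phase, CCNE2 had the largest difference of any member in any line. It went from 7.34 to 8.44 in VCaP (1.10), from 7.13 to 7.71 in DU145, from 7.997 to 8.14 in C4-2B and from 7.39 to 7.21 in PC3. Its mean was 0.41 ± 0.56 (limma adjusted p = 0.691), the highest of the 47 and rank 267 of 16796 genes, and without the VCaP pair it was 0.18. CCNE1 lay between -0.13 and 0.20 in the 4 lines. CDC25A, the phosphatase that activates CDK2, had 0.59 in DU145, 0.42 in C4-2B, 0.18 in VCaP and -0.02 in PC3.

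Fork protection and chromatin genes (4) had medians of 0.44 in DU145, 0.42 in VCaP, 0.18 in C4-2B and -0.15 in PC3. TIPIN, which holds the fork protection complex together with TIMELESS, was above its control in all 4 lines, at 6.41 and 7.17 in VCaP, 7.48 and 7.91 in DU145, 7.15 and 7.39 in C4-2B and 6.03 and 6.17 in PC3. Its mean difference was 0.39 ± 0.28 (limma 95% interval 0.07 to 0.71, adjusted p = 0.688). CLSPN, which carries the checkpoint signal from ATR to CHK1, had 0.66 in DU145, 0.50 in VCaP, 0.19 in C4-2B and -0.32 in PC3, and UHRF1, which keeps DNA methylation through replication, had 0.42, 0.33, 0.17 and -0.10.

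Whether a line responded unlike the other 3 was tested directly, with the other 3 lines giving the spread. For DU145, PC3, VCaP and C4-2B in turn, limma called 0 of 47 members and 0% of all genes. A prior variance that follows the signal called 137 genes for VCaP, none of them members. At an unadjusted level of 0.05 there were 6 members for DU145, all higher there (12.8% of members, against 4.62% of all genes), 3 for PC3, all lower (6.38% against 3.63%), 2 for VCaP, both higher (4.26% against 14.6%), and 0 for C4-2B (0% against 1.88%). The 6 members for DU145 were E2F7, PRIM1, ORC1, GINS1, TYMS and FEN1, the flap nuclease of the lagging strand. For E2F7 the response in DU145 exceeded the mean of the others by 0.89 (95% interval 0.15 to 1.62, limma adjusted p = 0.9997). For PC3 they were RRM2, CLSPN and MCM10, with RRM2 at -0.83 (-1.52 to -0.13). For VCaP they were CCNE2 at 0.92 (0.12 to 1.73, limma adjusted p = 0.306) and E2F2 at 0.77 (0.11 to 1.42, limma adjusted p = 0.302). On simulated data with the same mix of sizes, this contrast called 3.28% of genes that differed by 1 in a single line. It called 84.2% of those that differed by 2. A difference of the size seen in most members would therefore seldom be called at this number of arrays.

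Other genes of the same biology, from lists that are not members, showed which of this was shared. Another 51 measured replication factors and E2F targets had medians of 0.28 in DU145, 0.07 in C4-2B, 0.05 in VCaP and -0.09 in PC3, with 46, 35, 27 and 18 above 0. None passed in the mean over lines (limma, 0 of 51), and the extremes were RPA2 of the single-strand binding complex (0.37) and POLE4 (-0.15). Mitosis genes had 0.43 in DU145 (28 of 28 above 0) and -0.31 in PC3 (0 of 28), as the replication genes had in sign, but -0.22 in VCaP (5 of 28) and -0.03 in C4-2B (13 of 28), where the replication genes had 0.11 and 0.15. Whether that split between replication and mitosis genes in VCaP exceeds the spread between cultures was not tested. In the mean over lines, BIRC5 had 0.24 and ANLN -0.22 (0 of 28 passed).

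The 14 measured genes of G1/S control, among them RB1, cyclins D and the CDK inhibitors, had medians between -0.10 and 0.01 in the 4 lines and 0 passed. RBL2, which encodes p130, the RB family member that holds E2F targets down in resting cells, lay below its control in every line, with differences of -0.39 in both VCaP and DU145, -0.45 in PC3 and -0.96 in C4-2B. Its mean difference was -0.55 (limma adjusted p = 0.688). CCND3 had the highest mean of that list, at 0.15. Neither was called.

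**Figure D3:**
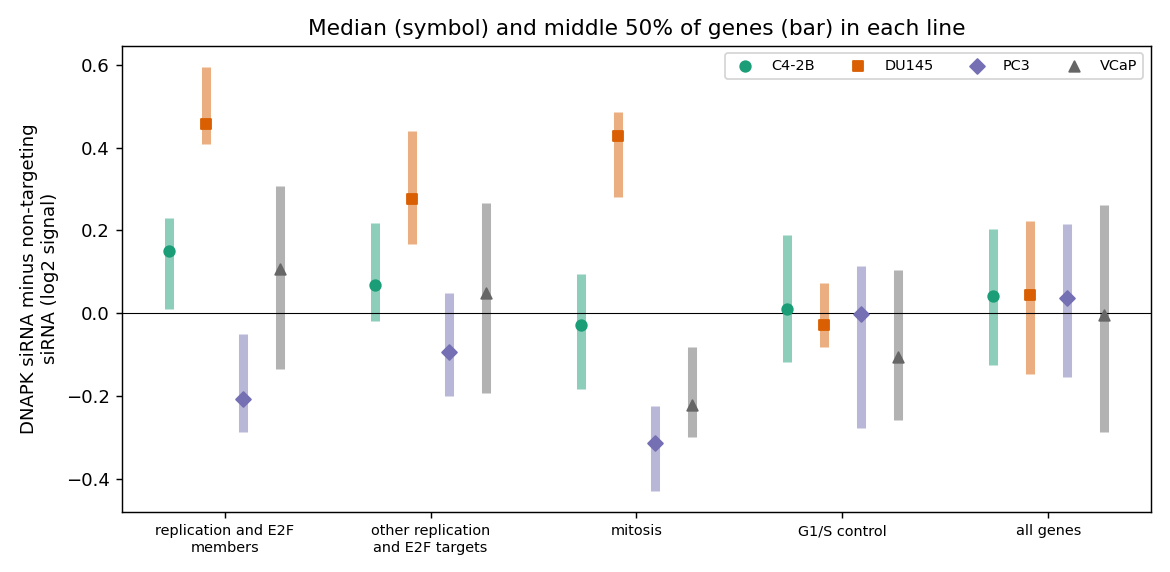
Median (symbol) and middle 50% of genes (bar) of the difference between the siRNAs (log2 signal, vertical axis) for each gene list and line. In DU145 the medians of the 2 replication lists and the mitosis list lie above 0, and in PC3 all 3 medians lie below it.

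The standing level of the members also differed between lines. Taking the mean of the 2 arrays of a line, with the treatment as a term, limma's F test called 33 of 47 members (70.2%), against 62.6% of all genes, so the share was near the background. The p-values of levels rest on how alike the 2 arrays of a line are, which had different siRNAs and are no replicate cultures. The direction was less even. C4-2B had the highest level in 26 of 47 members (55.3%), where it had the highest in 26% of all genes, and the lowest in 3 (6.38%, against 21.9%). PC3 had the lowest in 17 members (36.2%, against 25.4% of all genes) and VCaP in 15 (31.9%, against 29.2%). Relative to the mean of the 4 lines, the member median was 0.37 in C4-2B, 0.07 in DU145, -0.13 in VCaP and -0.16 in PC3.

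By pairs of lines, only level differences that limma called after adjustment, at the threshold given above, were counted. Members with an uncalled difference are in neither count, and the percentages of all genes count calls likewise. C4-2B was called above PC3 in 20 members and below it in 1 (17.7% and 18.5% of all genes). It was called above VCaP in 18 and below in 2 (18% and 16.7%), and above DU145 in 9 and below in 3 (17% and 17.5%). DU145 was called above VCaP in 13 and below in 7 (21.6% and 20.2%), and above PC3 in 8 and below in 2 (14.8% and 15.7%). PC3 was called above VCaP in 8 and below in 10 (21.5% and 19.6%). Neighbours in the order mostly did not pass, with 5 calls between the highest line and the next (24.5% of all genes), 5 between the middle lines (15.2%) and 12 between the lowest line and the one above it (18.3%).

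The range of the 4 levels had a median of 0.97, from 0.13 in POLD1, the catalytic subunit of polymerase delta, to 2.52 in POLE2, a subunit of polymerase epsilon. POLE2 read 8.02 and 8.51 in DU145, 6.84 and 6.90 in PC3, 6.64 and 6.48 in C4-2B and 5.80 and 5.68 in VCaP (control and DNAPK siRNA). DU145 stood above PC3 (limma adjusted p = 0.00188) and C4-2B above VCaP (0.0160), while PC3 and C4-2B did not differ beyond their spread (0.271). RFC3, of the clamp loader, read 9.63 and 9.55 in C4-2B, above 8.54 and 8.64 in VCaP (0.0109), 8.19 and 7.82 in PC3 and 7.32 and 7.83 in DU145. UHRF1 split the lines into 2 levels, 7.77 in DU145 and 7.50 in PC3 against 6.57 in C4-2B and 6.11 in VCaP, with the call between PC3 and C4-2B (0.00555). CDC25A was low in DU145 alone, at 5.46 against 6.56 in PC3 (0.00451), 6.69 in VCaP and 6.85 in C4-2B.

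GINS4, CCNE1 and GINS2 were lowest in VCaP. GINS4 stood at 3.62 there against 4.58 in PC3 (limma adjusted p = 0.00526), CCNE1 at 5.11 against 5.86 in PC3 (0.00771) and GINS2 at 4.95 against 5.87 in PC3 (0.0269). PRIM1, DUT and TIPIN were lowest in PC3, at 7.32, 3.39 and 6.10. For PRIM1 the next line, DU145, stood at 8.45 (0.0277), for DUT VCaP at 4.33 (0.0134) and for TIPIN VCaP at 6.79 (0.0240).

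The order of the lines was not the same on the arrays of the 2 siRNAs. On the control arrays DU145 had the lowest signal of the 4 lines in 17 members and the highest in 7 (24.3% and 23.4% of all genes). On the DNAPK siRNA arrays it had the lowest in 4 and the highest in 16 (23.3% and 24.4%). PC3 had the lowest in 10 members on the control arrays (24.6% of all genes) and in 24 with DNAPK siRNA (25.4%). C4-2B had the highest in 28 members on control arrays (25.2%) and in 23 with DNAPK siRNA (25.1%). Each count rests on 1 array per line. The shift between the siRNAs comes from the same arrays as the differences given above and restates them.

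**Figure D4:**
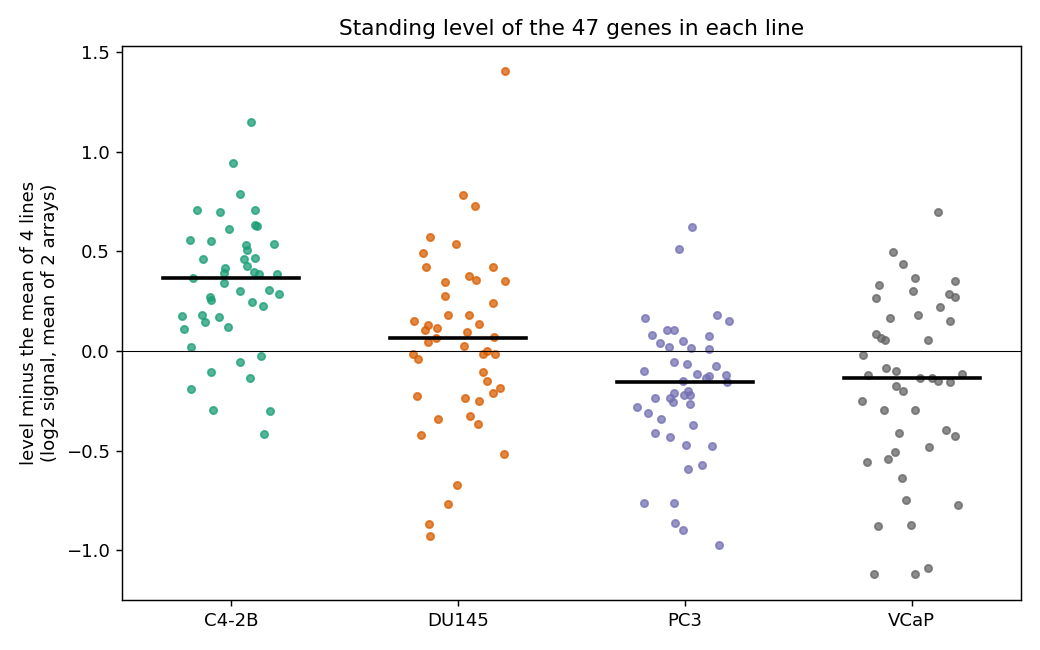
Level of each of the 47 genes in a line (mean of its 2 arrays) minus the mean of the 4 lines (log2 signal, vertical axis), with 1 point per gene and a black bar at the median. Of 47 points, 39 lie above 0 in C4-2B, 27 in DU145, 18 in VCaP and 14 in PC3.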

How the data were processed

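Total RNA (400 ng) from 4 cell lines was prepared with the Affymetrix WT Plus kit for whole-transcript arrays (labels' protocols). The deposited values are log2 signals that the authors made with the oligo package and RMA, per the submitters' processing notes, in which no versions are given. RMA forces the arrays to one distribution, so a shift shared by most transcripts cannot be seen. Array files, scan dates and detection calls were not analysed here, and the number of arrays limits the precision.

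Of 53617 probe sets, 23871 had 1 gene symbol in the platform annotation, 1842 had several and were left out, and the rest had none. Symbols were updated through Entrez identifiers where RefSeq held them, the probe set with the highest mean was kept for each of 22395 genes, and 16796 genes above the 25th percentile of the mean signal (2.51) were tested. limma 3.58.1 in R 4.3.3 (lmFit and eBayes, Benjamini-Hochberg adjustment over all tested genes, threshold 0.05, 2-sided) gave the mean response with the line as a block, the response of 1 line against the other 3, and the level of the lines with the treatment as a term. The line pairs the arrays by the labels, and the deviations of a line's 2 arrays correlated at 0.864 to 0.918. The p-values of the response measure the spread between 4 lines, and an exact sign-flip test of 4 pairs cannot go below 0.125. Those of the level measure how alike the 2 arrays of a line are, although these had different siRNAs. The tests were checked on simulated data. Values of every array are given for the 3 highest and 3 lowest mean differences, the 2 highest and 2 lowest differences in each line and any member past a test of the response; the 4 promoters printed are those with an E2F motif and the highest difference in DU145. A few further members are given as differences and were picked after their values were seen, as were the genes shown for their levels. The members and gene lists were chosen with earlier results of these data known. Sequences are RefSeq's. Alternatives were array centring, cyclic loess, other filters and folds, the mean of probe sets, a prior variance following the signal, no block and leaving out each line.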

Additional observations from a re-analysis of the deposited data

Results flagged for a closer look

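GINS1 stood apart in 1 line. Its difference in DU145 was 0.46, far from those in the other 3 lines, which lay between -0.26 and -0.15, and the gap took up 0.848 of the whole range, past Dixon's 95% critical value for 4 values. Of 52 sets of 4 values examined this was the 1 that passed, and chance alone passes about 5% of such sets.

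Opposite signs in DU145 and PC3 marked 35 of the 47 members, above 0 in the first and below 0 in the other. The difference between these lines alone was not tested, since each has 1 pair of arrays.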

How the results depend on the processing

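Of 502 values recomputed under an alternative, 479 were counted as the same, 21 as moved and 2 as reversed. Part of that count was fixed in advance. Each member had 1 probe set, so the mean of probe sets left its differences unchanged. Other filters, a prior variance following the signal and no block also leave the mean difference of a gene unchanged. Mean differences of single genes were judged by their sign and their side of the threshold. Counts and percentages were judged by a set ratio to the reported value. That ratio is wide: 27 members with a mean difference above 0 without the DU145 pair counted as the same as 39 with it. Medians and differences within a line were judged by whether the shift stayed within the spread between lines. By that rule the member median of the mean difference counted as the same without the DU145 pair, at 0.02 against 0.12. The member medians of the 4 lines kept their signs under array centring and cyclic loess (0.40 in DU145 and -0.23 in PC3 under loess). No response test called a member under any alternative run. For VCaP against the other 3 lines, 2 genes were called with a filter at the 50th percentile and 137 with a prior variance following the signal; the cause was not tested. Counts of members past a fold moved with the fold by construction. At 0.25 there were 42 higher in DU145, 10 higher and 1 lower in C4-2B, 1 higher and 16 lower in PC3, and 15 higher and 8 lower in VCaP. At 1 there were 0 higher in DU145 and C4-2B, 0 lower in PC3, and 1 higher and 0 lower in VCaP. The shares of all genes past 0.25 and past 1 were not computed, so these counts have no background. The middle 50% of all genes ran from -0.29 to 0.26 in VCaP and from -0.15 to 0.22 in DU145. It ran from -0.15 to 0.21 in PC3 and from -0.13 to 0.20 in C4-2B. At 0.5 the count of members higher in C4-2B became 0 under array centring and under loess, and that in VCaP became 3 under centring. Leaving out 1 line at a time, the mean difference of E2F2 ran from -0.34 to 0.000252 and that of PRIM1 from -0.34 to 0.13. Without the replicate block the fit called 0 members for the mean response, as with it, and 0 in place of 4 reached the unadjusted level of 0.05. With 1 array per siRNA and line, differences within a line have no error.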
